A study of Mus musculus with 6 samples.

Results

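A set of 10 genes of the Notch pathway was followed in the colon epithelium of mice with and without Zfp90, a KRAB zinc finger protein. They were the receptors Notch1 and Notch2, the ligands Dll1, Dll4 and Jag1, the receptor-modifying enzyme Lfng, the coactivator Maml1, the Notch targets Hes1 and Nrarp, and Hes6, a Hes family member that opposes Hes1. The rule listed the genes by name and used no measured value, although earlier results of these data were known when it was written, and all 10 were among the 52550 genes listed. RNA-seq covered 3 samples of Zfp90 fl/fl mice and 3 of Zfp90 ΔIEC mice. Both groups carried a floxed exon 4 of Zfp90, and in Zfp90 ΔIEC mice a Villin-Cre transgene, active in the epithelial cells of the gut, removed it. The labels give male C57BL/6 mice of 6 to 8 weeks, an age that can only be that before the treatment. All 6 samples came from mice that had been through AOM-DSS colitis-associated carcinogenesis, so that no untreated epithelium was in the comparison. Azoxymethane (AOM), a carcinogen, was injected at 10 mg/kg, and after 5 days dextran sulfate sodium (DSS), which injures the colonic lining, was given at 2% for 7 days followed by 14 days of water. This was done for 3 cycles, and tissue was taken on day 80. The study's methods give a slightly higher DSS concentration than the labels. Epithelium was released from the colon with 2.5 mM EDTA and 1 mM DTT and was not sorted, so other cells could be carried over. The genotypes were housed apart after weaning, and the effects of cage and of genotype cannot be told apart. The labels do not name separate animals for the replicates, and p-values measure the spread between these samples only.

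Notch receptors are cell surface proteins that are switched on by Delta and Jagged ligands on a neighbouring cell. After the ligand binds, Adam10 and then the γ-secretase complex cut the receptor, and its freed intracellular domain enters the nucleus, where it joins the DNA-binding protein Rbpj and a Mastermind coactivator to turn on Hes1 and other targets. In the intestinal crypt this signal holds progenitors on the absorptive path. Cells that escape it express Atoh1, display Delta ligands themselves and become goblet or enteroendocrine cells.

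Promoters of Nrarp and Dll4, the members past the filter on low values whose groups did not overlap, and of Lfng, the member that held the Rbpj core motif, are shown because the pathway ends at such sequences. They cover 250 bases before and 50 bases from the annotated start on, in GRCm38.p6 as given by RefSeq, 5′ to 3′ on the strand of the gene. The searched motifs were TGGGAA (Rbpj core), CACGTG (E box) and CACNAG (N box, a site class bound by Hes repressors), each on both strands. In Nrarp (chr2:25180508-25180807, plus strand) the capitals mark 1 E box and 2 N boxes.
Nrarp: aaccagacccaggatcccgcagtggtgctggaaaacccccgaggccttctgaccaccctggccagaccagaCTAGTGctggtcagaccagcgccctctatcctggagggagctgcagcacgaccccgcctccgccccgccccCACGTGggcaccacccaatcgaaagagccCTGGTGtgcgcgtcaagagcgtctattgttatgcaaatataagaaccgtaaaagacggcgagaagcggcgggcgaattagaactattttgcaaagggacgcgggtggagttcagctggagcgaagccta
In Dll4 (chr2:119325534-119325833, plus strand) the capitals mark 1 N box.
Dll4: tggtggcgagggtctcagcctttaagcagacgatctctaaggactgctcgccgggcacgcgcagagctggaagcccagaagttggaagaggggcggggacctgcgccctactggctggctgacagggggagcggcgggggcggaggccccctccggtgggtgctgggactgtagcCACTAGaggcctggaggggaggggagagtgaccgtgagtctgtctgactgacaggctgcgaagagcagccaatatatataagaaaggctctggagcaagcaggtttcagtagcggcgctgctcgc
In Lfng (chr5:140607091-140607390, plus strand) the capitals mark 2 Rbpj cores. The second of these shares 2 bases with an E box, and an N box is left in lower case.
Lfng: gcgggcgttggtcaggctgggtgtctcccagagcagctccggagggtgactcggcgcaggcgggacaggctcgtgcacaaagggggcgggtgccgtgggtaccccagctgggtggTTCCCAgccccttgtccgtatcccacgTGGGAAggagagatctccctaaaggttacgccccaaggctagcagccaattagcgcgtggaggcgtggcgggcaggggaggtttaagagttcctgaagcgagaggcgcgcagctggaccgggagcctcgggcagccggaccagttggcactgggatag
Promoters of 9 members were matched, 11 windows in all, and Hes1 had no entry in the table. The Rbpj core stood in 1 of the 11 windows (9.09%) against 25.6% of 32851 RefSeq promoters, the E box in 2 (18.2%) against 7.15%, and the N box in 7 (63.6%) against 42.5%. These are matches of letters, and no binding was measured.

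Expression is given as FPKM, fragments scaled to transcript length and sequencing depth, which allows levels to be compared between genes. Hes1 stood far above the other members with a mean of 45.1 FPKM over the 6 samples. Hes6 followed at 10.8 FPKM and Nrarp at 7.16 FPKM. The coactivator Maml1 was at 5.08 FPKM. Among the ligands Jag1 was at 4.19, Dll4 at 3.28 and Dll1 at 2.37 FPKM, with Lfng at 2.82 and Notch1 at 2.58 FPKM among them. Notch2 was the lowest at 0.776 FPKM. The ranges over 6 samples of neighbours in this order were apart only between Hes1 and Hes6, between Hes6 and Nrarp and between Dll1 and Notch2, and every other neighbouring pair overlapped. Hes1 made up 54.5% ± 4.73 of the summed FPKM of the 10 members in Zfp90 fl/fl and 52.5% ± 2.19 in Zfp90 ΔIEC (SD, n = 3 each). The sum itself was 83.6 ± 6.43 FPKM in Zfp90 fl/fl and 84.7 ± 1.52 FPKM in Zfp90 ΔIEC.

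**Figure D1:**
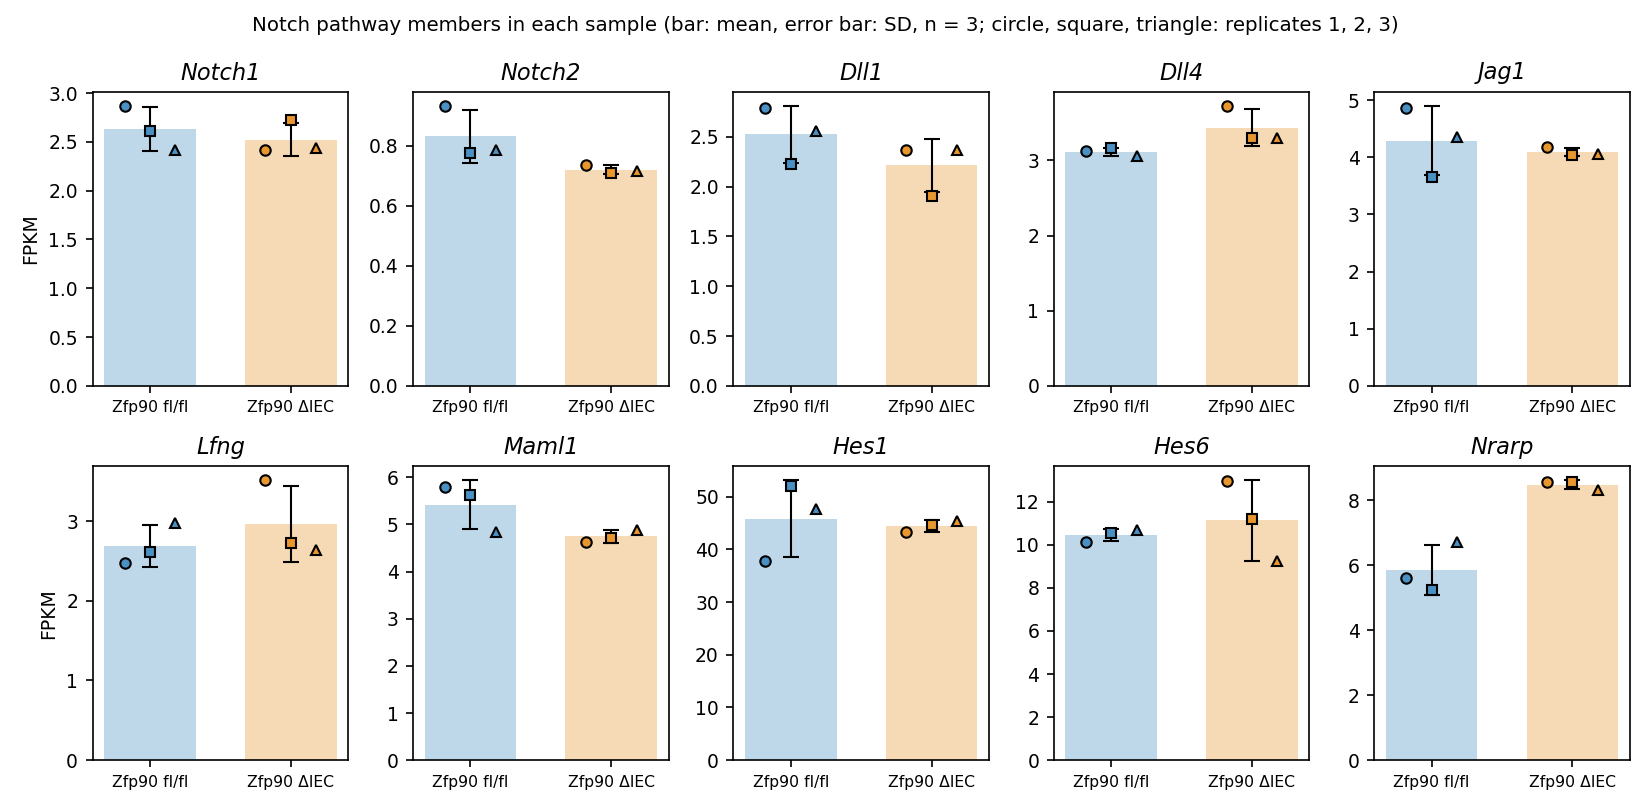
FPKM of the 10 Notch members in each sample, on axes that start at 0, for Zfp90 fl/fl (blue) and Zfp90 ΔIEC (orange). Bars are means, error bars the SD of 3 samples and symbols the replicates. The Nrarp samples of Zfp90 ΔIEC lie between 8.31 and 8.56 FPKM, above the highest Zfp90 fl/fl sample at 6.71 FPKM, while the Hes1 samples of the 2 groups overlap.

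Genotypes were compared on log2(FPKM + 1) with limma, a linear model fitted across 11564 genes that had at least 1 FPKM in at least 3 samples, and p-values were adjusted by the Benjamini-Hochberg method over all of them. Of the members 9 passed this filter, and Notch2 was tested in the same model without the filter, over 27805 genes. Differences below are Zfp90 ΔIEC minus Zfp90 fl/fl on the log2(FPKM + 1) scale, which understates the change of low genes. None of the 9 members (0 of 9) had an adjusted p under 0.05 in limma, against 0.199% of all genes tested (23 genes, 8 higher and 15 lower). Without Zfp90 fl/fl replicate 2 the 23 genes became 10. At an unadjusted p under 0.05 there was 1 member, Nrarp, against 14.6% of all genes. The groups did not overlap for 2 of the 9, Dll4 and Nrarp, both higher in Zfp90 ΔIEC, 22.2% against 21.3% of all genes (8.73% higher and 12.6% lower). This share is close to the background. The median difference of the 9 was -0.03 and that of all genes tested -0.02.

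Nrarp, a small ankyrin repeat protein that Notch induces and that in turn restrains the Notch nuclear complex, had the largest difference of the 10. It lies on chromosome 2 (chr2:25180758-25183339, plus strand, GRCm38), with a single annotated transcript of 2582 bases. It was measured at 5.61, 5.24 and 6.71 FPKM in Zfp90 fl/fl (replicates 1, 2 and 3 in this order, here and throughout). In Zfp90 ΔIEC it was at 8.54, 8.56 and 8.31 FPKM. All 3 Zfp90 ΔIEC samples were higher than any Zfp90 fl/fl sample, and they lay close together. The mean was 5.85 ± 0.764 FPKM in Zfp90 fl/fl and 8.47 ± 0.137 FPKM in Zfp90 ΔIEC (SD, n = 3 each), 44.7% higher. The difference was 0.47 on the log2(FPKM + 1) scale (standard error 0.0857, 95% interval 0.27 to 0.68). With limma the unadjusted p was 0.000921 and the Benjamini-Hochberg adjusted p was 0.0873, which did not pass the threshold. Leaving out each sample or changing the scaling, filter or pseudocount kept the difference between 0.41 and 0.56, with adjusted p between 0.0662 and 0.226 in limma.

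The depth behind these values was estimated, since the files give none. Low values of single-transcript genes rise in steps of 1 fragment, and the step gave 25.7 to 28.65 M fragments per sample. By this estimate Nrarp rested on 372, 380 and 488 fragments in Zfp90 fl/fl and on 601, 633 and 599 in Zfp90 ΔIEC. The counting error by the same estimate was 3.97% to 5.18% per sample. The coefficient of variation between samples was 13.1% in Zfp90 fl/fl and 1.62% in Zfp90 ΔIEC. The part of counting error in the difference between the groups was not tested. A gene annotated antisense to Nrarp, Gm38287, was listed at 0 in all 6 samples.

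Hes1, the repressor through which Notch keeps Atoh1 off, was the member with the highest level. It lies at chr16:30064384-30067796 on the plus strand. It was measured at 37.7, 52.0 and 47.6 FPKM in Zfp90 fl/fl and at 43.3, 44.6 and 45.4 FPKM in Zfp90 ΔIEC. The Zfp90 ΔIEC samples sat inside the range of the Zfp90 fl/fl samples, whose coefficient of variation was 16.0% against 2.41%. The difference was -0.03 (95% interval -0.30 to 0.24, adjusted p = 0.919, limma). Its sign depended on single samples, as it was 0.066 without Zfp90 fl/fl replicate 2 and 0.003 without Zfp90 fl/fl replicate 3. Because Nrarp and Hes1 read out the same pathway, they were also set against each other. Nrarp amounted to 14.9%, 10.1% and 14.1% of the Hes1 FPKM in Zfp90 fl/fl and to 19.7%, 19.2% and 18.3% in Zfp90 ΔIEC. These shares did not overlap, with means of 13.0% ± 2.57 and 19.1% ± 0.714 (SD, n = 3 each). Since Nrarp alone did not overlap and mean Hes1 differed little, the shares largely repeat the Nrarp values and are no separate result.

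Hes6, a family member that counteracts Hes1 and is expressed in cells leaving the progenitor state, lies at chr1:91411483-91414038 on the minus strand. It was measured at 10.1, 10.6 and 10.7 FPKM in Zfp90 fl/fl and at 13.0, 11.2 and 9.24 FPKM in Zfp90 ΔIEC. The Zfp90 ΔIEC samples lay on both sides of the Zfp90 fl/fl samples. The difference was 0.07 (95% interval -0.19 to 0.33, adjusted p = 0.809, limma), and it was -0.037 without Zfp90 ΔIEC replicate 1. Hes6 and Hes1 thus differed in which genotype was the more variable, the coefficient of variation of Hes6 being 2.76% in Zfp90 fl/fl and 16.8% in Zfp90 ΔIEC. With 3 samples per group this difference in spread was not tested.

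**Figure D2:**
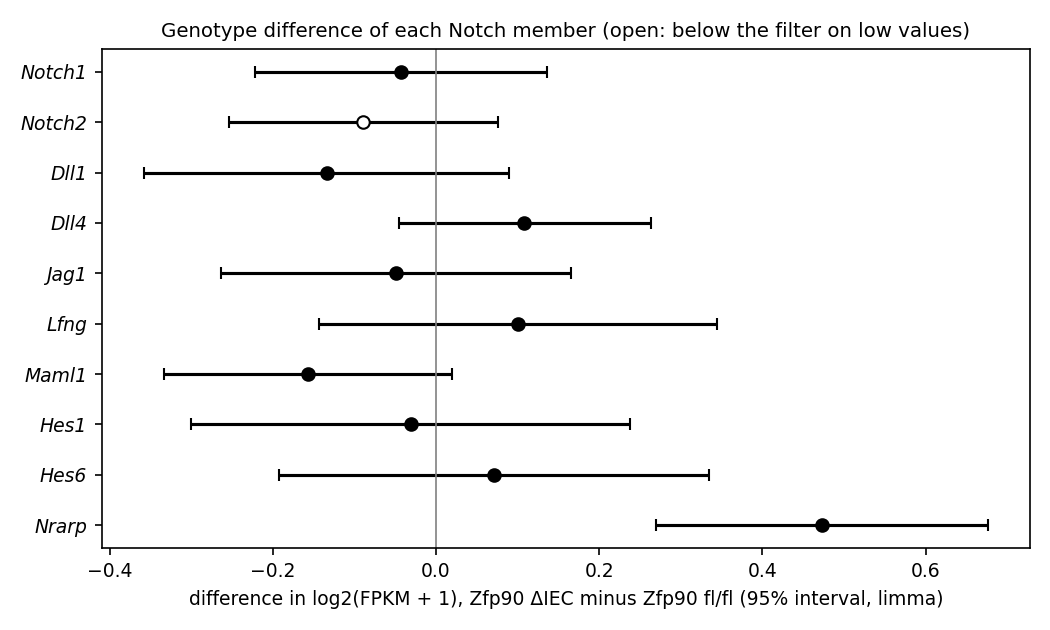
Difference between the genotypes for each Notch member on the log2(FPKM + 1) scale (x axis), with points for the limma estimates and bars for the 95% intervals. The interval of Nrarp runs from 0.27 to 0.68 and the other 9 intervals include 0. The open point is Notch2, which was below the filter on low values.

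Among the receptors, Notch1, the main Notch receptor of the crypt together with Notch2, lies at chr2:26457903-26516663 on the minus strand. It was measured at 2.87, 2.61 and 2.42 FPKM in Zfp90 fl/fl and at 2.42, 2.72 and 2.43 FPKM in Zfp90 ΔIEC, and the groups overlapped. The difference was -0.04 (95% interval -0.22 to 0.14, adjusted p = 0.831, limma) and turned to 0.003 without Zfp90 fl/fl replicate 1. Notch2 (chr3:98013527-98150361, plus strand) was at 0.933, 0.777 and 0.785 FPKM in Zfp90 fl/fl and at 0.737, 0.709 and 0.717 FPKM in Zfp90 ΔIEC. All Zfp90 ΔIEC samples were lower than any Zfp90 fl/fl sample, by a small margin between the nearest samples. Its difference was -0.09 (95% interval -0.25 to 0.08, adjusted p = 0.751, limma without the filter). Notch1 exceeded Notch2 by a ratio of 3.17 ± 0.168 in Zfp90 fl/fl and 3.50 ± 0.292 in Zfp90 ΔIEC. The receptors summed to 3.46 ± 0.306 and 3.24 ± 0.16 FPKM. Of the other receptors, Notch3 and Notch4 were below the filter, at group means of 0.0351 and 0.0279 FPKM for Notch3 and of 0.402 and 0.437 FPKM for Notch4.

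The ligands differed in direction, and 0 of 3 passed the test in limma. Dll4, a Delta ligand of secretory cells in the crypt and also a classic ligand of endothelium, lies at chr2:119325784-119335962 on the plus strand. It was measured at 3.12, 3.16 and 3.05 FPKM in Zfp90 fl/fl and at 3.72, 3.30 and 3.29 FPKM in Zfp90 ΔIEC. All Zfp90 ΔIEC samples were higher, replicate 1 the most. The difference was 0.11 (95% interval -0.05 to 0.26, adjusted p = 0.50, limma). A gene on the opposite strand that overlaps Dll4, Gm14207, was at 1.30 to 2.15 FPKM, with overlapping groups. The libraries were strand-specific by the labels, but how strand was counted is not given in the sources used here, so reads of both genes may be mixed.

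Dll1, the other Delta ligand of the crypt (chr17:15367354-15376872, minus strand), was measured at 2.79, 2.23 and 2.56 FPKM in Zfp90 fl/fl and at 2.36, 1.90 and 2.37 FPKM in Zfp90 ΔIEC. The groups overlapped, and the difference was -0.13 (95% interval -0.36 to 0.09, adjusted p = 0.565, limma). Jag1 (chr2:137081456-137116644, minus strand), a Jagged ligand, was at 4.86, 3.65 and 4.36 FPKM in Zfp90 fl/fl and at 4.18, 4.04 and 4.06 FPKM in Zfp90 ΔIEC. The Zfp90 ΔIEC samples lay inside the range of the Zfp90 fl/fl samples. The difference was -0.05 (95% interval -0.26 to 0.17, adjusted p = 0.84, limma) and turned to 0.027 without Zfp90 fl/fl replicate 1. The 3 ligands summed to 9.93 ± 0.869 FPKM in Zfp90 fl/fl and 9.74 ± 0.509 FPKM in Zfp90 ΔIEC, and Dll4 made up 31.5% ± 3.07 and 35.3% ± 1.26 of this sum. Jag2, Dll3 and the atypical ligands Dlk1, Dlk2 and Dner were all below the filter, the highest being Jag2 at group means of 0.461 and 0.527 FPKM.

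Lfng, a glycosyltransferase that extends sugars on Notch and shifts its choice between Delta and Jagged ligands, lies at chr5:140607320-140615545 on the plus strand. It was measured at 2.47, 2.61 and 2.97 FPKM in Zfp90 fl/fl and at 3.51, 2.73 and 2.64 FPKM in Zfp90 ΔIEC. The groups overlapped, with Zfp90 ΔIEC replicate 1 the highest. The difference was 0.10 (95% interval -0.14 to 0.34, adjusted p = 0.702, limma). Maml1, the Mastermind coactivator (chr11:50255634-50292311, minus strand), was at 5.80, 5.63 and 4.83 FPKM in Zfp90 fl/fl and at 4.63, 4.72 and 4.89 FPKM in Zfp90 ΔIEC. Zfp90 fl/fl replicate 3 lay among the Zfp90 ΔIEC samples and replicates 1 and 2 lay above them. The difference was -0.16 (95% interval -0.33 to 0.02, adjusted p = 0.396, limma).

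Most members had their highest value in 1 of 2 samples. Zfp90 fl/fl replicate 1 held the highest value of 5 members (Notch1, Notch2, Dll1, Jag1 and Maml1), and Zfp90 ΔIEC replicate 1 that of 3 members (Dll4, Lfng and Hes6). The secretory factor Atoh1 was also highest in Zfp90 ΔIEC replicate 1, at 22.3 FPKM against 13.7 and 16.5 FPKM in the other two and 16.7, 14.2 and 14.5 FPKM in Zfp90 fl/fl. Muc2, the main mucin of goblet cells, was at 1010 FPKM in that sample against 593 and 464 FPKM in the others of its group and 431 to 444 FPKM in Zfp90 fl/fl. The goblet cell markers Zg16 and Agr2 were also highest there. The goblet cell markers Clca1, Fcgbp and Tff3 were instead highest in Zfp90 ΔIEC replicate 3, and the secretory factor Spdef in Zfp90 ΔIEC replicate 2. Atoh1 and these other genes were looked up here after the values of the members had been seen.

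Further genes of the pathway were grouped by role into 6 lists of 82 genes. Of these 53 passed the filter and 0 had an adjusted p under 0.05 in limma, while 12 (22.6%) had an unadjusted p under 0.05, 4 higher and 8 lower, against 14.6% of all genes. The groups did not overlap for 18 of the 53 (34%) against 21.3% of all genes. Of the 53, 4 (7.55%) were higher and 14 (26.4%) lower, against 8.73% and 12.6% of all genes. After median ratio scaling of the samples this became 6 higher (11.3%) and 9 lower (17%), against 10.6% and 9.77% of all genes. After quantile normalization it was 3 higher (5.66%) and 11 lower (20.8%), against 10.2% and 10.5%. The size of the split thus depended on the scaling, while the lower share was above that of all genes under each. The median difference of the 53 genes was -0.06.

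In the list of receptor glycosylation and cleavage 12 of 14 genes passed the filter, with 0 called. A difference below 0 was found for 10 of the 12, against 6613 of all 11564 genes tested. The groups did not overlap for 6 of the 12 (50%), all lower in Zfp90 ΔIEC, against 12.6% of all genes tested. After median ratio scaling this held for 4 of these (33.3%) against 9.77% of all genes. After quantile normalization it held for all 6 (50%) against 10.5%. The median was -0.13. Aph1a, a structural subunit of γ-secretase, was at 22.9, 26.0 and 26.1 FPKM in Zfp90 fl/fl and at 19.4, 22.2 and 22.1 FPKM in Zfp90 ΔIEC (difference -0.23, adjusted p = 0.273, limma). Adam10, the protease that makes the first ligand-dependent cut, was at 23.0, 24.3 and 22.1 FPKM and at 20.8, 20.7 and 19.1 FPKM (difference -0.19, adjusted p = 0.253, limma). Ncstn, the γ-secretase subunit that receives the substrate, was at 36.9, 37.7 and 36.1 FPKM and at 31.5, 33.5 and 33.0 FPKM (difference -0.17, adjusted p = 0.216, limma). For each of these 3 genes every Zfp90 ΔIEC sample was below every Zfp90 fl/fl sample. Psenen, a small subunit of γ-secretase, had a difference of -0.07 with overlapping groups (adjusted p = 0.801, limma).

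The list of endocytosis and ubiquitin ligases had 11 of 14 genes past the filter and 0 called, with a median of -0.12. The groups did not overlap for 1 gene higher (9.09%) and 3 lower (27.3%), against 8.73% and 12.6% of all genes. Dtx3, a Deltex ubiquitin ligase, had a mean of 1.10 ± 0.10 FPKM in Zfp90 fl/fl and 1.42 ± 0.103 FPKM in Zfp90 ΔIEC (difference 0.21). Mib2, a ligase that acts on Notch ligands, was at 4.56 ± 0.254 and 3.86 ± 0.225 FPKM (difference -0.20), and Dtx4 at 3.73 ± 0.313 and 3.14 ± 0.168 FPKM (difference -0.19). Their adjusted p-values in limma were 0.291, 0.261 and 0.306. The list of the nuclear complex and corepressors had 18 of 20 genes past the filter and 0 called, with a median of -0.07. Without overlap were 2 higher (11.1%) and 5 lower (27.8%), against the same 8.73% and 12.6%. Here the corepressors differed in direction. Hdac1, a histone deacetylase found in many repressor complexes, was at 34.1 ± 1.92 FPKM in Zfp90 fl/fl and 42.6 ± 4.05 FPKM in Zfp90 ΔIEC (difference 0.31, adjusted p = 0.17, limma). Tle4, a Groucho corepressor that Hes proteins recruit, was at 14.6 ± 0.223 and 12.1 ± 0.742 FPKM (difference -0.25, adjusted p = 0.134, limma), and its relative Tle3 had a difference of -0.24 (adjusted p = 0.313, limma). Rbpj itself was at 3.12 ± 0.191 and 2.96 ± 0.151 FPKM with overlapping groups. Of the 5 lower genes without overlap, 2 were left after median ratio scaling and 2 after quantile normalization. That is 11.1% of the list under either scaling, against 9.77% and 10.5% of all genes.

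Of other Hes, Hey and intestinal target genes only 3 of 10 passed the filter, Hes2, Myc and Ccnd1, and 0 were called or without overlap. Hey1, Hey2, Heyl, Hes5 and Hes7 had group means of at most 0.0545 FPKM, and Hes3 was listed at 0 in every sample. Olfm4, a Notch target in intestinal stem cells of the small bowel, was at 0.0316 and 0.00745 FPKM. Of the Hes and Hey genes, members included, Hes1, Hes6 and Hes2 were thus the ones past the filter. Of the secretory fate factors 9 of 17 passed the filter and 0 were called, and the median was 0.08. A difference above 0 was found for 7 of the 9, against 4951 of all 11564 genes tested. Klf4, a factor of goblet cell maturation, was the 1 gene without overlap, higher in Zfp90 ΔIEC (11.1% of the 9 against 8.73% of all genes). It was at 222 ± 7.06 FPKM in Zfp90 fl/fl and 246 ± 8.10 FPKM in Zfp90 ΔIEC (difference 0.15, adjusted p = 0.288, limma). After quantile normalization its groups overlapped. After median ratio scaling Foxa3 joined it as a second higher gene without overlap (22.2% against 10.6% of all genes). Spdef, which drives goblet cell maturation, had the largest difference of the list at 0.68, with 10.9 ± 5.18 FPKM in Zfp90 fl/fl and 17.0 ± 2.37 FPKM in Zfp90 ΔIEC. Its groups overlapped, and its adjusted p was 0.325 in limma (unadjusted p = 0.0428). Atoh1 had a difference of 0.18 with overlapping groups (adjusted p = 0.665, limma).

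**Figure D3:**
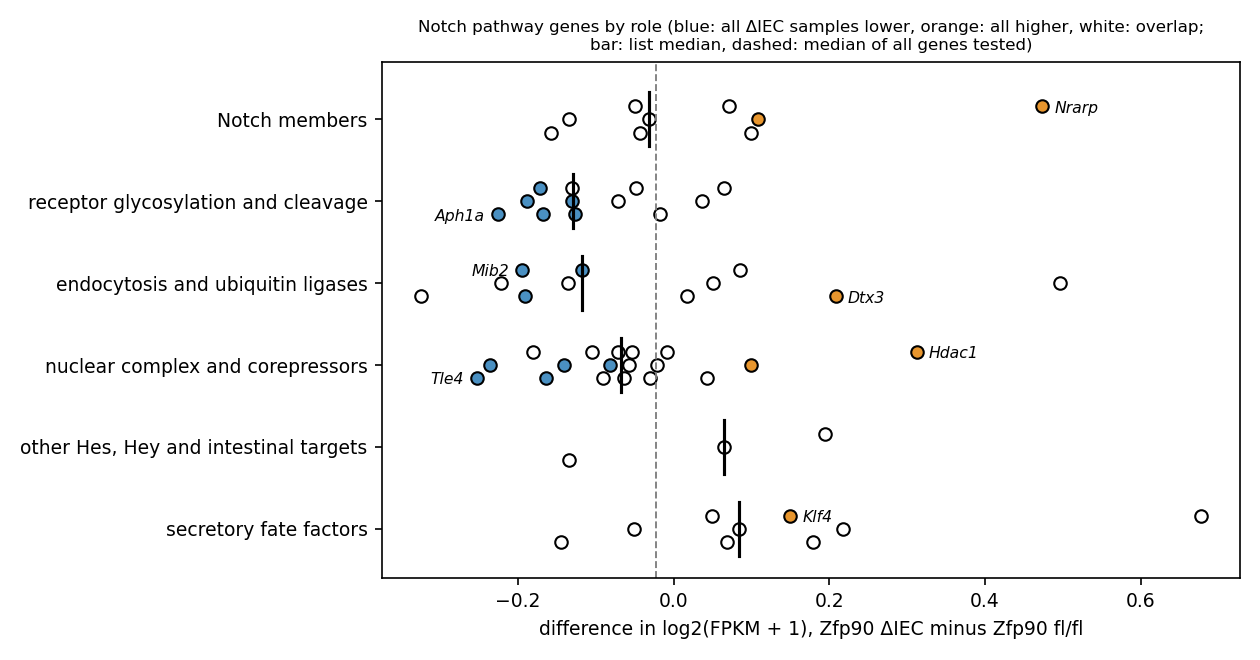
Difference between genotypes on the log2(FPKM + 1) scale (x axis) for the 9 Notch members and the 53 further pathway genes past the filter, by role. Filled points are genes whose groups do not overlap, bars are list medians and the dashed line is the median of all genes tested at -0.02. In the list of receptor glycosylation and cleavage 10 of 12 points lie below 0 and 6 are blue, and Nrarp lies apart from the other members.

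The pathway differs between cell types, so markers of the cells that the sample could hold were summed beside it. Epithelial markers (9 of 9 at a mean of at least 1 FPKM) summed to 6043 to 6865 FPKM in Zfp90 fl/fl and 5999 to 6565 FPKM in Zfp90 ΔIEC, so the samples were epithelial and overlapped in this. Absorptive colonocyte markers summed to 5075 to 6815 FPKM in Zfp90 fl/fl and 7767 to 11780 FPKM in Zfp90 ΔIEC, and 5 of 5 had a higher mean. Most of this sum was Car1, with means of 4706 and 7871 FPKM. Goblet cell markers summed to 1888 to 2317 and 2512 to 3368 FPKM, and 6 of 6 had a higher mean. Enteroendocrine markers summed to 89.4 to 100.8 and 106 to 131 FPKM, with 3 of 6 at a higher mean. The sums of absorptive, goblet and enteroendocrine markers were thus higher in Zfp90 ΔIEC without overlap. Tuft cell markers (1.67 to 2.07 and 0.962 to 1.95 FPKM) and crypt stem cell markers (12.7 to 15.6 and 11.4 to 14.1 FPKM) overlapped between the groups. Of the tuft markers, all under 1 FPKM, 5 of 5 had a lower mean in Zfp90 ΔIEC, and of the stem cell markers 2 of 4. In bulk samples, fewer cells of a type and less RNA per cell cannot be told apart. The part of these markers in the Nrarp and Dll4 values was not tested.

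Leukocyte markers summed to 8.71 to 9.53 FPKM in Zfp90 fl/fl and 3.06 to 3.91 FPKM in Zfp90 ΔIEC, and 10 of 10 had a lower mean, 2 of them, S100a8 and S100a9, listed at 0 in every Zfp90 ΔIEC sample. Of all markers 0 were called with the filter in limma, while Itgam, a myeloid integrin below the filter, was past the threshold without it (adjusted p = 0.0199). The part of leukocyte RNA in the Notch2 and Dll1 values was not tested.

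Since Dll4, Jag1 and Notch1 are also expressed by blood vessels, endothelial markers were set beside them. None of the 7 (0 of 7) reached a mean of 1 FPKM, 5 stayed under 0.1 FPKM in every sample, and Emcn was at 0 in all. Their sum was 0.326 to 0.475 FPKM in Zfp90 fl/fl and 0.663 to 0.741 FPKM in Zfp90 ΔIEC, without overlap and almost wholly from Pecam1 and Esam. Pecam1 was at 0.257 ± 0.0577 FPKM in Zfp90 fl/fl and 0.458 ± 0.0357 FPKM in Zfp90 ΔIEC, and Esam at 0.126 ± 0.0292 and 0.229 ± 0.0134 FPKM. Cdh5, Kdr, Tek and Tie1 were at or near 0 in both genotypes. The part of endothelial RNA in the Dll4 values was not tested. Fibroblast markers summed to 0.221 to 0.409 FPKM in Zfp90 fl/fl and to 0.120 to 0.702 FPKM in Zfp90 ΔIEC. Mural and muscle cell markers summed to 1.95 to 2.27 and 1.51 to 2.02 FPKM, mostly from Pdgfrb, and the groups overlapped for both lists.

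**Figure D4:**
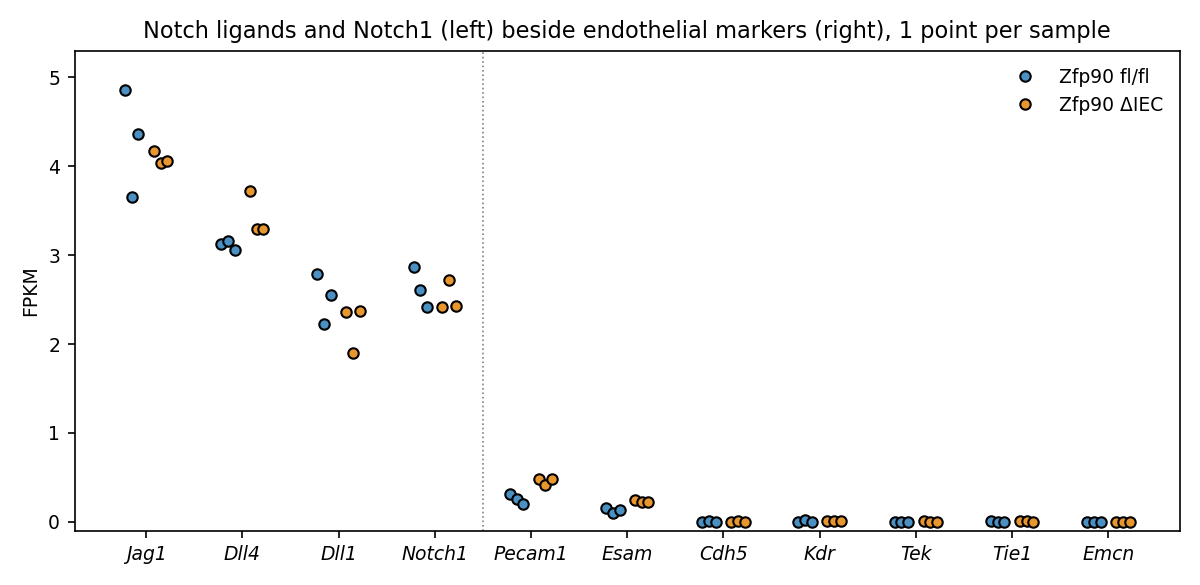
FPKM (y axis) of the Notch ligands and Notch1, left of the dotted line, and of 7 endothelial markers, right of it, with 1 point per sample. The ligands and Notch1 lie between 1.90 and 4.86 FPKM, while Cdh5, Kdr, Tek, Tie1 and Emcn lie at or near 0 in both genotypes. Pecam1 (group means 0.257 and 0.458 FPKM) and Esam (0.126 and 0.229 FPKM) are higher in Zfp90 ΔIEC, without overlap.

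**Figure D5:**
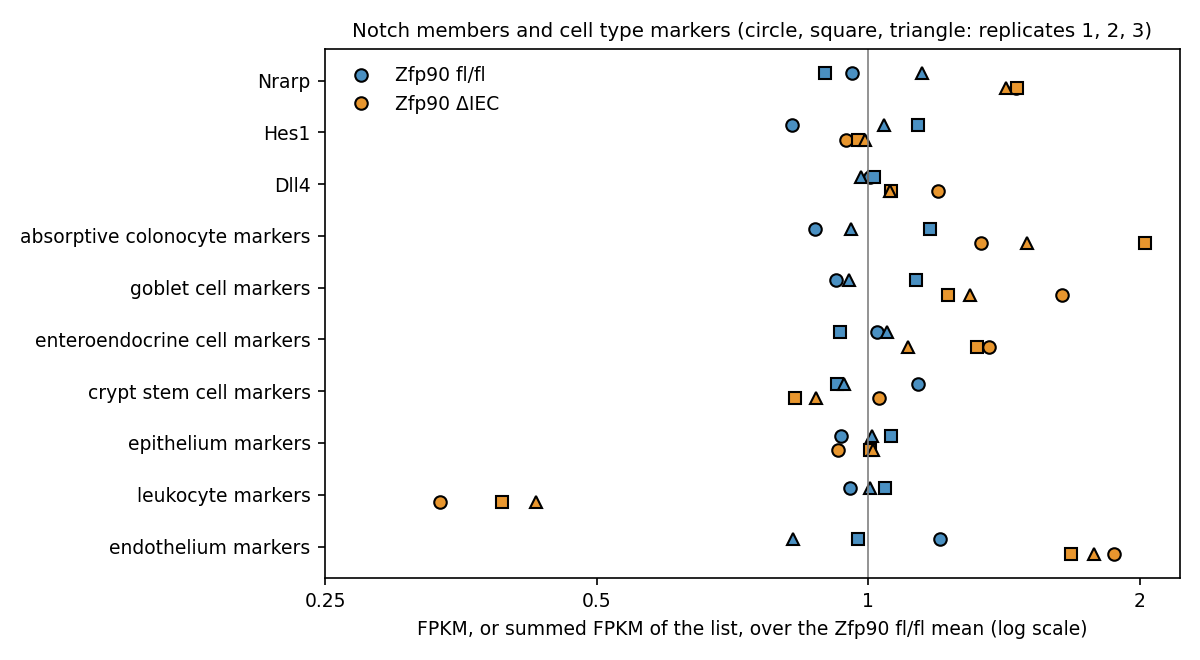
Level of Nrarp, Hes1, Dll4 and summed cell type markers in every sample, divided by the Zfp90 fl/fl mean (log-scaled x axis). The marker lists drawn are absorptive, goblet, enteroendocrine, crypt stem cell, epithelial, leukocyte and endothelial. Tuft cell, fibroblast, and mural and muscle cell markers are not drawn. Nrarp of Zfp90 ΔIEC lies at 1.42 to 1.46 of that mean and leukocyte markers at 0.335 to 0.428, while Hes1 and the epithelial markers of Zfp90 ΔIEC lie within the Zfp90 fl/fl range or at its edge.

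The genes whose pattern was most like that of Nrarp were found by the root mean square difference of centred log2(FPKM + 1) values over the 6 samples, among all genes tested. The Nrarp values themselves spread by 0.254 on this measure. The nearest gene was Rgcc, a regulator of the cell cycle (difference 0.0648), at 2.98, 2.85 and 3.37 FPKM in Zfp90 fl/fl and 4.42, 4.29 and 4.05 FPKM in Zfp90 ΔIEC. Ccnb1, the mitotic cyclin B1, came next (0.0685), and Hsd17b2, a steroid-oxidising enzyme of differentiated epithelium, came after it (0.0728). These genes were picked for their likeness, and their values are a description.

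Zfp90 itself, as a check of the labels, was at 0.630, 0.490 and 0.569 FPKM in Zfp90 fl/fl and at 0.0846, 0.195 and 0.166 FPKM in Zfp90 ΔIEC, lower in 3 of 3 samples. It was below the filter, and its difference of -0.44 did not pass the threshold in limma without the filter (adjusted p = 0.123). The genotype label of 2 Zfp90 ΔIEC samples carries another number after Zfp, and they were grouped by their titles.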

How the data were processed

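The authors deposited 1 FPKM value per gene for each of 6 colon epithelium samples, 3 per genotype. Their methods name TopHat, Cuffdiff and a human genome, whereas the submitters' processing notes name FastQC, STAR 2.5, Cuffnorm, DESeq 1.22.1 and mm9. The values carry mouse Ensembl identifiers, and which route made them was not settled. Of 52550 genes 52403 had a symbol and 147 had none. Coordinates are those of the GENCODE annotation of GRCm38, joined by identifier, a different build from mm9.

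From these deposited FPKM, log2(FPKM + 1) was tested with limma 3.58.1 in R 4.3.3 (empirical Bayes with an intensity trend, two-sided, Benjamini-Hochberg adjustment, threshold 0.05) over the 11564 genes that reached 1 FPKM in 3 or more samples. The fit was tested on simulated data. Depth is an estimate, since 59.9% to 64.5% of the low values examined lay within 0.1 of a whole fragment. For this reason no count test was run. Tables and figures came from Python 3.11.15 (numpy 2.4.6, pandas 2.3.3, matplotlib 3.10.9).

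The members, the lists and the rule for named genes (in each list up to 3 genes of largest difference among those past the filter and without overlap) were chosen with earlier results of these data known. Genes named outside that rule were chosen after their values were seen. Alternatives were leaving out each sample, the replicate number as a block, median ratio scaling, quantile normalization, a pseudocount of 0.1 and no filter. The result of 1 gene of the lists is not reported here.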

Additional observations from a re-analysis of the deposited data

How the results depend on the processing

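The count of Notch members past the threshold and that of further pathway genes past it stayed at 0 under all 11 alternatives, and at an unadjusted p under 0.05 there were 1 or 2 members and 6 to 16 pathway genes. Over all genes the 23 past the threshold became 13 with a pseudocount of 0.1, 15 with no filter and 47 with the replicate block, and 10 to 21 when 1 sample was left out, lowest without Zfp90 fl/fl replicate 2. The cause was not tested. The replicate numbers share only a number. Deviations of same-numbered samples from their group mean correlated at 0.194, 0.11 and 0.0782 for replicates 1, 2 and 3. Of the samples, 6 of 6 correlated best with their own number. The deviations within a group sum to 0, so these matches are not independent of each other. They cannot decide whether samples were paired, and the design does not state it. With the replicate block Nrarp had an adjusted p of 0.126 in limma, and 0 members were called.

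For single members 104 of 109 alternative values kept their direction and 5 turned sign, each when a sample was left out. Without Zfp90 fl/fl replicate 1 Notch1 was at 0.003 (leave-one-out range -0.086 to 0.003) and Jag1 at 0.027 (-0.139 to 0.027). Hes1 was at 0.066 without Zfp90 fl/fl replicate 2 and at 0.003 without replicate 3 (-0.161 to 0.066), and Hes6 at -0.037 without Zfp90 ΔIEC replicate 1 (-0.037 to 0.188). None of these differences had passed the threshold. The median of all genes moved by less than 0.1 under every scaling. Depth is only estimated, and the values of Notch2, Zfp90 and most endothelial and leukocyte markers, under 1 FPKM, are the least precise.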

Other observations

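Of the 82 further pathway genes, 29 were below the filter on low values, with group means of at most 0.784 FPKM, and in 6 of these the groups did not overlap, 4 higher and 2 lower in Zfp90 ΔIEC. That is 20.7% of the 29, against 10.3% of all 16241 genes below the filter that had a value above 0. Of those 16241 genes 4.04% were higher and 6.23% lower without overlap. The 29 include Hes3, listed at 0 in every sample, while the 16241 hold no such gene. They are given as values, and they were chosen after these were seen. Neurog3, the factor that starts enteroendocrine differentiation, was at 0.329 ± 0.0378 FPKM in Zfp90 fl/fl and 0.459 ± 0.0666 FPKM in Zfp90 ΔIEC. Nkx2-2, a later factor of the same lineage, was at 0.205 ± 0.0791 and 0.37 ± 0.0887 FPKM. Neurl1a, a ubiquitin ligase of the Neuralized family, was at 0.0982 ± 0.0137 and 0.242 ± 0.143 FPKM, and the coactivator Maml2 at 0.0407 ± 0.00551 and 0.0763 ± 0.028 FPKM. The lower genes were Dtx1, a Deltex ubiquitin ligase, at 0.191 ± 0.0459 and 0.0790 ± 0.025 FPKM, and Pou2f3, the factor of tuft cells, at 0.0704 ± 0.0291 and 0.0234 ± 0.0232 FPKM. With limma without the filter 0 of the 6 passed the threshold. Of the 29 genes, 3 (Neurog3, Nkx2-2 and Dtx1) had an unadjusted p under 0.05 in this fit, against 7.09% of the 16241 genes. These 3 are among the 6 picked for groups without overlap, a choice that itself favours small p-values. The adjusted p-values of the 6 in this fit were 0.472 for Neurog3, 0.462 for Nkx2-2, 0.549 for Neurl1a, 0.534 for Maml2, 0.28 for Dtx1 and 0.511 for Pou2f3.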
